A study of Homo sapiens with 4 samples.

Results

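Kinesins are motor proteins that hydrolyse ATP to move along, or to take apart, microtubules. Mitotic kinesins build the spindle, move and align chromosomes and lay down the midzone on which a dividing cell cuts itself apart, and many of their transcripts are made mainly in the G2 and M phases. Transport kinesins carry vesicles, mitochondria and protein complexes along microtubules in interphase, most of them outwards. Kinesin-1 does so as heavy chains bound to light chains that hold the cargo. The class counted as transport here also holds KIFC2 and KIFC3, which move inwards, and KIF21A, which slows microtubule growth. The genes described here were chosen by symbol: every gene whose symbol starts with KIF followed by a number, with KIFC1, KIFC2, KIFC3, the kinesin-2 accessory subunit KIFAP3 and the light chain genes KLC1 to KLC4. The rule takes 59 symbols of the RefSeq gene table, of which 47 code for protein. A transcript accession of 46 of these, all but KIF18B, stands in the authors' table, which names 19465 genes in all. Of these 46, 34 were joined to a probe of the array and 20 were above background and tested, out of 6466 genes tested.

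The cells of both groups were MDA-LM2, which was derived from the human breast cancer line MDA-MB-231 by growth in the lung. They were transfected by lipofection with capped, poly-adenylated RNA that carried tandem sRSE elements (the sRSE decoy, 2 samples), or with scrambled RNA (2 samples). Total RNA was taken 48 h later and read on Illumina beadchips with 47323 probes, 1 array per sample. The decoy is meant to titrate the factor that binds the element, and no untransfected sample is among the 4. Of the line's markers with a probe, CD44 and the collagenase MMP1 were above background on 4 arrays and the metastasis genes SPARC and IL13RA2 on 0. The luminal breast genes ESR1, PGR, GATA3, ERBB2 and CDH1 and the leukocyte genes PTPRC and CD3E were above background on 0 arrays, as was VWF of endothelium, while PECAM1, also of endothelium, was detected on 4.

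Non-normalized bead signals were higher overall on the decoy arrays, with a 75th percentile of 208 and 193 against 166 and 157 with scrambled RNA. Among all 6466 genes, both decoy arrays lay above both scrambled arrays in 57.9% before normalization and below them in 10.9%. After background correction and quantile normalization these shares were 34.9% and 40.7%. Directions below are therefore those of the normalized log2 signal, with the non-normalized values beside them for the measured kinesin genes. A gene was called when its adjusted p was under 0.05 (limma over all genes tested, Benjamini-Hochberg). Of all genes tested, 44.7% were called, 21.3% higher and 23.4% lower with the decoy.

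The rule does not select on the size of a signal, but the authors' ratio of decoy over scrambled RNA served as the tag that joined accessions to probes, and the genes were proposed with results of this comparison known. The adjusted p-values are therefore no independent evidence about kinesins as a family. The SEs, intervals and p-values are moderated: limma draws each gene's variance towards a value shared by all genes tested (prior degrees of freedom 5.55). They state how a difference compares with that moderated spread between arrays, not with the gene's own spread alone. Nothing in the labels says that the 2 samples of a group were separate cultures, so the spread between arrays may be technical.

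Promoter letters are shown for 4 of the genes because most, but not all, mitotic members hold sequence features that the rule did not use. TTTGAA is the core of the cell cycle genes homology region, through which the DREAM complex represses G2 and M phase genes in quiescent cells, and CCAAT is the box bound by NF-Y. RefSeq promoter windows (GRCh38.p14), from 250 bases before to 50 after the start, were searched on both strands for these 2 words, which may share an end base where they adjoin. Of the windows of all genes in the table, 15.2% held TTTGAA, 34.6% held CCAAT and 5.90% held both. Counted by gene, 4961 of 27305 had TTTGAA, 10846 had CCAAT and 1983 had both. Windows were found for all 15 mitotic genes listed, and 10 of these genes had TTTGAA, 11 had CCAAT and 9 had both. Among the 15 transport genes with a window, 1 gene had TTTGAA and 4 had CCAAT.

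The 250 bases before the start are printed 5′ to 3′ on the strand of the gene, with both words, on either strand, in capitals. KIF4A has the largest difference of any kinesin and holds both words, KIF20A rose without TTTGAA, KIF14 is the mitotic member that fell, and KIF5B is the transport member with TTTGAA.
KIF4A, chrX:70289854-70290103, plus strand: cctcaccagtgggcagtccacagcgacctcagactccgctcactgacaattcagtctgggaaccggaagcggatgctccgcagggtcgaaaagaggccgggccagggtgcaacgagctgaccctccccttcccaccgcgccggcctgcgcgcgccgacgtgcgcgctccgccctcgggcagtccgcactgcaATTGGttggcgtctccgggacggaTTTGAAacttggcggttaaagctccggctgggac
KIF20A, chr5:138178862-138179111, plus strand: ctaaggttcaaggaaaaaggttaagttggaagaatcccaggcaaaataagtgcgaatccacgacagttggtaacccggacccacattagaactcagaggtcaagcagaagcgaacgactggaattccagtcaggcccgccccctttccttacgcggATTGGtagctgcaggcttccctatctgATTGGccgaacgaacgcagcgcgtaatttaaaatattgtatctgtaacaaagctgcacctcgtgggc
KIF14, chr1:200620752-200621001, minus strand: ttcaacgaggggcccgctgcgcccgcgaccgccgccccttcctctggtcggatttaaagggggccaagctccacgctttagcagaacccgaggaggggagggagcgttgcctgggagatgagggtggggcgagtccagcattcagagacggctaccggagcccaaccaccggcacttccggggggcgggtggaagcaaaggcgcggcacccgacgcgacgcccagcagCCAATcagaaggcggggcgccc
KIF5B, chr10:32056426-32056675, minus strand: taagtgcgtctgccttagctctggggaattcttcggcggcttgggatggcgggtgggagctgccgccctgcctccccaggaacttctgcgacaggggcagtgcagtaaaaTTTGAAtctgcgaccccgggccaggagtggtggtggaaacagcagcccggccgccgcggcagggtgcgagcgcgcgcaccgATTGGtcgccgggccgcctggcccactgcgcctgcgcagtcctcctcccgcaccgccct

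In KIF4A both words lie close to the start, CCAAT on the other strand at -58 to -54 and TTTGAA at -34 to -29. In KIF20A the word CCAAT occurs at 2 places on the other strand, with first bases at -94 and -67. In KIF14 CCAAT begins at -22, and TTTGAA lies after the start, at 2 to 7 on the other strand. In KIF5B TTTGAA lies farther upstream, from -140, with CCAAT at -59 on the other strand. Of the 6 mitotic kinesins that rose, 3 had TTTGAA and 4 had CCAAT, while KIF2C and KIF2A had neither. Of the 3 that did not pass, 2 had each word, so the words did not separate the calls.

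The contrast of the groups sets the decoy against scrambled RNA. Whether a difference follows from the factor that the decoy may draw away was not tested. Among the 10 measured mitotic kinesins, 6 rose with the decoy and 1 fell, while 3 missed the threshold, beside 44.7% called among all genes. Their median log2 difference was 0.37, and it was -0.03 over all genes tested. The 6 that rose act at different stages of division: spindle assembly and depolymerisation (KIFC1, KIF2C, KIF2A), chromosome arms and midzone (KIF4A) and cytokinesis (KIF20A, KIF23). All 10 were above background on 4 of 4 arrays. The share of dividing cells and the amount of RNA per cell cannot be told apart in these bulk extracts.

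KIF4A, a chromosome-bound motor that shortens and bundles the central spindle together with PRC1, read 9.42 and 9.32 with the decoy, against 8.54 and 8.43 with scrambled RNA (normalized log2 signal). The decoy arrays stand clear of the scrambled arrays. Its non-normalized signal was 843 and 717 with the decoy and 399 and 344 with scrambled RNA. The difference of 0.88 ± 0.09 (log2, SE, n = 2 per group; limma adjusted p = 7.85e-04) is a 1.84-fold rise, at percentile 98.4 of all genes tested, and KIF4A was called under each of the 13 alternatives, at 0.80 to 0.97. KIF4B, an intronless copy of KIF4A on another chromosome, had a probe of its own that was above background on 0 arrays, and whether the KIF4A probe also reads that copy was not tested.

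KIF20A carries the chromosomal passenger complex to the midzone at anaphase. Its signal was 11.41 and 11.33 with the decoy, against 10.96 and 10.77 with scrambled RNA, and before normalization 3064 and 2584 against 2047 and 1622 with scrambled RNA. It rose by 0.51 ± 0.10 (log2, SE, n = 2 per group; limma adjusted p = 0.00527). KIFC1, the minus-end motor that focuses spindle poles and gathers surplus centrosomes in tumour cells, read 11.81 and 11.55 with the decoy and 11.14 and 11.22 with scrambled RNA. Its non-normalized signal was 3989 and 2999 with the decoy, against 2321 and 2226 with scrambled RNA. Its rise was 0.50 ± 0.11 (limma adjusted p = 0.00829). The groups do not overlap for either motor, and for KIFC1 the decoy arrays lie farther apart than the scrambled arrays. Without sRSE decoy replicate 1 neither passed, at 0.47 for KIF20A and 0.37 for KIFC1.

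KIF2C and KIF2A are kinesin-13 proteins, which do not walk but remove tubulin from microtubule ends, KIF2C at centromeres and KIF2A at spindle poles and, in neurons, in growing branches. With the decoy KIF2C read 10.36 and 10.49, against 9.86 and 10.03 with scrambled RNA, and KIF2A read 9.60 and 9.67 against 9.04 and 9.29 with scrambled RNA. Before normalization KIF2C read 1527 and 1498 with the decoy, against 954 and 974 with scrambled RNA, and KIF2A 950 and 894 against 549.0 and 596 with scrambled RNA. For both genes, on both scales, each decoy array exceeds each scrambled array. KIF2C rose by 0.48 ± 0.10 (log2, SE, n = 2 per group; limma adjusted p = 0.00696). KIF2A rose by 0.47 ± 0.10 (limma adjusted p = 0.00983). KIF2C did not pass without sRSE decoy replicate 2 (0.41), nor KIF2A without sRSE decoy replicate 1 (0.50) or 2 (0.44).

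KIF23, the motor subunit of centralspindlin, rose less. Its brighter probe read 10.36 and 10.44 with the decoy, against 10.12 and 10.12 with scrambled RNA, a difference of 0.27 ± 0.08 (log2, SE, n = 2 per group; limma adjusted p = 0.0315). Before normalization that probe read 1521 and 1449 with the decoy, against 1146 and 1038 with scrambled RNA. A dimmer probe for another KIF23 accession read 7.70 and 7.57 with the decoy and 7.22 and 7.21 with scrambled RNA, a difference of 0.41 ± 0.09 (limma adjusted p = 0.00774 over all detected probes). Both probes move the same way. The call of the brighter probe is a narrow one: it was lost without any 1 of the 4 arrays (0.23 to 0.31), with median scaling (0.25), with median scaling over the detected probes (0.17) and without a detection filter.

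KIF14, which works with citron kinase at the cytokinetic bridge, fell by 0.29 (log2, n = 2 per group, SE 0.09; limma adjusted p = 0.0317). Its normalized signal was 9.52 and 9.37 with the decoy and 9.72 and 9.75 with scrambled RNA. Before normalization the groups overlapped, at 899 and 744 with the decoy and 861 and 804 with scrambled RNA, so the fall is relative to the brighter decoy arrays. It did not pass without any 1 of the 4 arrays (-0.36 to -0.22), with median scaling (-0.24) or without a detection filter.

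KIF22, KIF15 and KIF20B did not pass. KIF22, a chromokinesin that pushes chromosome arms towards the equator, read 10.29 and 10.20 with the decoy, against 10.00 and 10.12 with scrambled RNA, a difference of 0.19 with a 95% interval of -0.02 to 0.39. KIF15, which keeps the spindle bipolar beside KIF11, differed by 0.04 (-0.17 to 0.25). KIF20B, a motor of late cytokinesis, differed by -0.12 (-0.38 to 0.15), and its decoy arrays lay apart, at 11.36 and 11.06, against 11.35 and 11.30 with scrambled RNA. Before normalization both decoy arrays were the higher for KIF22 (1462 and 1250.2, against 1049 and 1037 with scrambled RNA) and for KIF15 (657 and 656, against 547 and 521 with scrambled RNA). For KIF20B the groups overlapped, at 2952 and 2161 with the decoy and 2687 and 2358 with scrambled RNA. The intervals of all 3 hold 0, so the direction of these differences was not resolved with 2 arrays per group.

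**Figure D1:**
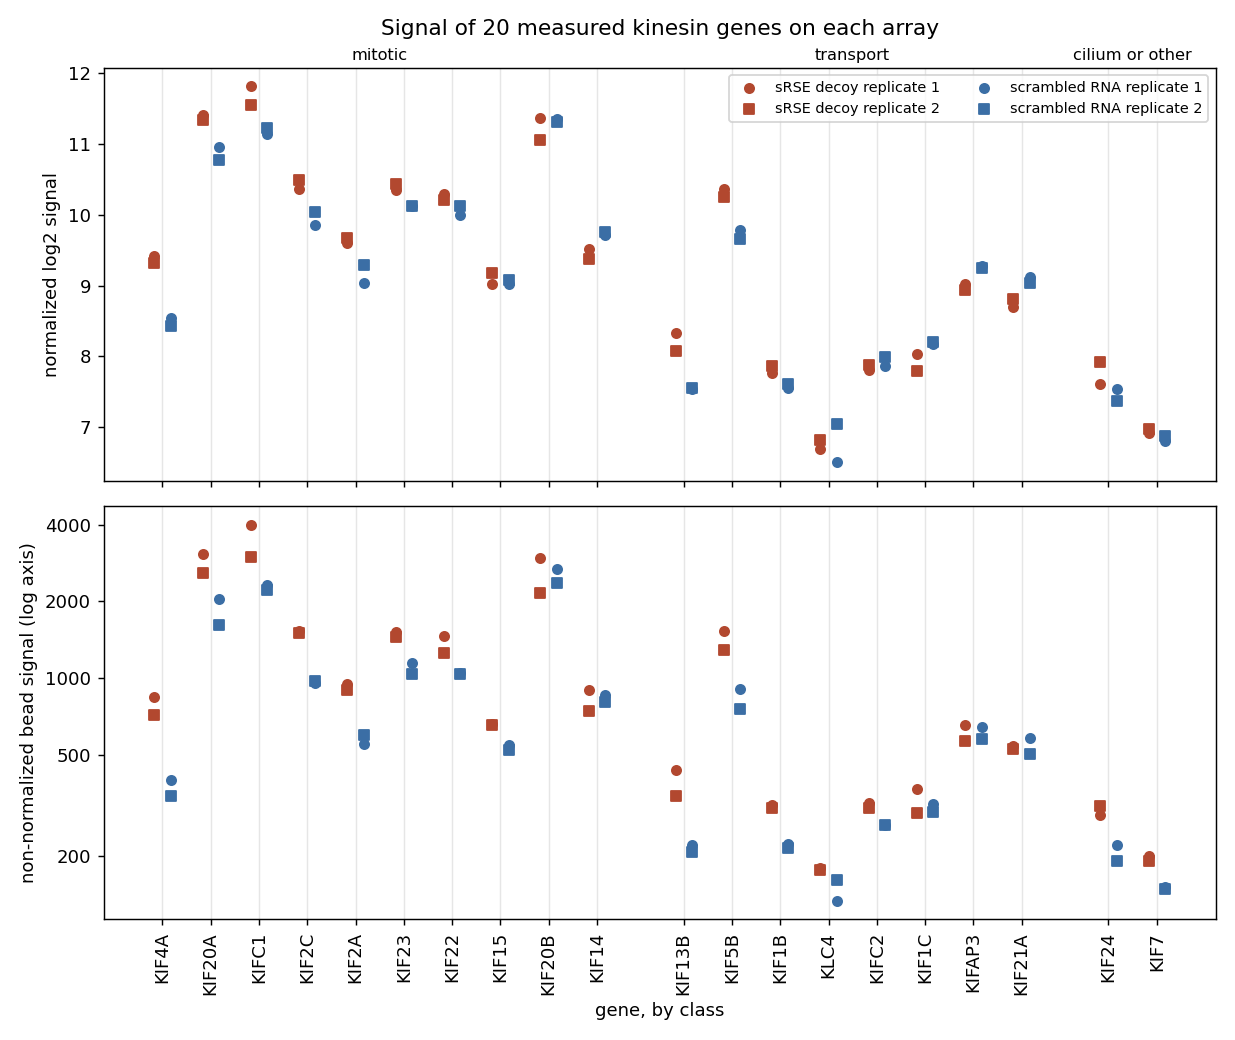
Normalized log2 signal (upper panel) and non-normalized bead signal on a log axis (lower panel) of the 20 measured kinesin genes, 1 point per array, decoy points left of scrambled points. Most genes separate by group in both panels, among them KIF4A, KIF13B and KIF5B and the uncalled KIF22, KIF1B, KIF24 and KIF7. KIF14, KIFAP3, KIF21A and the uncalled KIF1C separate after normalization only.

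Transport kinesins were called in both directions as reported here, but not under each setting. Of the 8 read above background 2 rose and 2 fell, while 4 missed the threshold, beside 21.3% higher and 23.4% lower among all genes. Their median log2 difference was -0.06, and it became 0.13 with median scaling, 0.04 with median scaling over the detected probes and 0.11 without scrambled RNA replicate 2, while it was -0.21 without scrambled RNA replicate 1. The mitotic median of 0.37 and this one were not compared by a test. Without a detection filter 16 transport kinesins were tested, and 3 were called higher and 0 lower, beside 7.09% and 6.51% of all genes then tested. Of these 3, KIF13B and KIF5B are 2, and the other is a member not above background on any array. With median scaling 3 of the 8 transport kinesins were called higher and 0 lower, beside 24.6% and 15.5% of all genes. Without scrambled RNA replicate 1, or without sRSE decoy replicate 2, 2 were called higher and 0 lower. For the mitotic kinesins the called count was 2 without sRSE decoy replicate 1 and 3 without sRSE decoy replicate 2, where 7 were called with all arrays. Over all genes the share called was 38.4% without scrambled RNA replicate 1, 23.5% without sRSE decoy replicate 1 and 22.5% without sRSE decoy replicate 2.

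KIF13B, a kinesin-3 motor that carries the scaffold DLG1 and membrane receptors, showed the largest difference among transport members. It read 8.33 and 8.07 with the decoy, against 7.54 and 7.56 with scrambled RNA, and before normalization 436 and 344 against 220 and 208 with scrambled RNA. The 2 decoy arrays are unequal but both lie above the scrambled arrays. The rise was 0.66 ± 0.10 (log2, SE, n = 2 per group; limma adjusted p = 0.00273), or 1.58-fold, and it held under each of the 13 alternatives at 0.53 to 0.82.

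KIF5B, the kinesin-1 heavy chain made in most tissues, read 10.36 and 10.24 with the decoy, against 9.78 and 9.66 with scrambled RNA. Its non-normalized signal was 1525 and 1284 with the decoy and 906 and 759 with scrambled RNA. It rose by 0.58 ± 0.09 (log2, SE, n = 2 per group; limma adjusted p = 0.00272). KIF5B was called under each of the 13 alternatives, at 0.50 to 0.64. The neuronal heavy chain KIF5C was not above background on any array. Among the light chains that pair with these heavy chains, only KLC4 was measured, by 1 of its 4 probes. KLC4 read 6.70 and 6.82 with the decoy, against 6.51 and 7.05 with scrambled RNA. Its scrambled arrays span its decoy arrays, although before normalization the decoy arrays were the higher (179.9 and 176 with the decoy, against 133.5 and 161.5 with scrambled RNA), and the 95% interval of its difference, -0.41 to 0.35, is the widest of the 20.

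KIFAP3 and KIF21A fell. KIFAP3, the subunit that ties kinesin-2 heavy chains to cargo and to the cilium, read 9.02 and 8.94 with the decoy, against 9.27 and 9.24 with scrambled RNA, a difference of -0.28 ± 0.08 (log2, SE, n = 2 per group; limma adjusted p = 0.0284). KIF21A, a kinesin-4 protein that slows microtubule growth at the cell cortex, read 8.69 and 8.81 with the decoy and 9.12 and 9.03 with scrambled RNA, a difference of -0.33 ± 0.09 (limma adjusted p = 0.0206). Both separate by group only after normalization. Their non-normalized signals were 656 and 568 with the decoy against 642 and 577 with scrambled RNA for KIFAP3, and 541 and 525 against 581 and 504 with scrambled RNA for KIF21A, so the groups overlap there. Neither passed with median scaling (-0.21 for KIFAP3, -0.24 for KIF21A) or without a detection filter. KIFAP3 was lost without any 1 array (-0.32 to -0.24), and KIF21A without any 1 array but scrambled RNA replicate 2, where it read -0.37.

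KIF1B, KIF1C and KIFC2 did not pass. KIF1B, a carrier of mitochondria and of synaptic vesicle precursors, read 7.77 and 7.87 with the decoy, against 7.56 and 7.61 with scrambled RNA, a difference of 0.24 (95% interval 0.04 to 0.44; limma adjusted p = 0.0542, n = 2 per group). It passed with median scaling (0.41), median scaling over the detected probes (0.33), cyclic loess (0.27) and among genes detected on all 4 arrays. KIF1C, which moves vesicles to podosomes and protrusions, read 8.03 and 7.79 with the decoy, against 8.18 and 8.21 with scrambled RNA, a difference of -0.28 (-0.51 to -0.04; limma adjusted p = 0.0565). KIF1C passed on the authors' normalized values (-0.25), without background correction (-0.23), among genes detected on all 4 arrays and without sRSE decoy replicate 1 (-0.40). Before normalization the KIF1B signal was 316 and 307.5 with the decoy, against 223 and 214 with scrambled RNA. For KIF1C the non-normalized groups overlapped, at 368 and 295 with the decoy and 320.0 and 298.5 with scrambled RNA. The minus-end motor KIFC2 differed by -0.09 (-0.29 to 0.12) on the normalized scale, where its groups overlapped. Its non-normalized signal ran the other way, at 322 and 309 with the decoy, against 264 and 264 with scrambled RNA.

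Members with ciliary roles were few. KIF24, which holds back cilium growth at the mother centriole, read 7.61 and 7.92 with the decoy, against 7.54 and 7.38 with scrambled RNA, and did not pass (0.30, 95% interval 0.03 to 0.58; limma adjusted p = 0.0725, n = 2 per group). It passed with median scaling (0.47), with median scaling over the detected probes (0.39) and without scrambled RNA replicate 1 (0.39) or sRSE decoy replicate 1 (0.46). KIF7, a regulator of Hedgehog signalling in the cilium, differed by 0.11 (-0.09 to 0.30). Before normalization the decoy arrays were the higher for KIF24 (288 and 315, against 221 and 190.3 with scrambled RNA) and for KIF7 (201 and 191, against 151.0 and 149 with scrambled RNA).

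**Figure D2:**
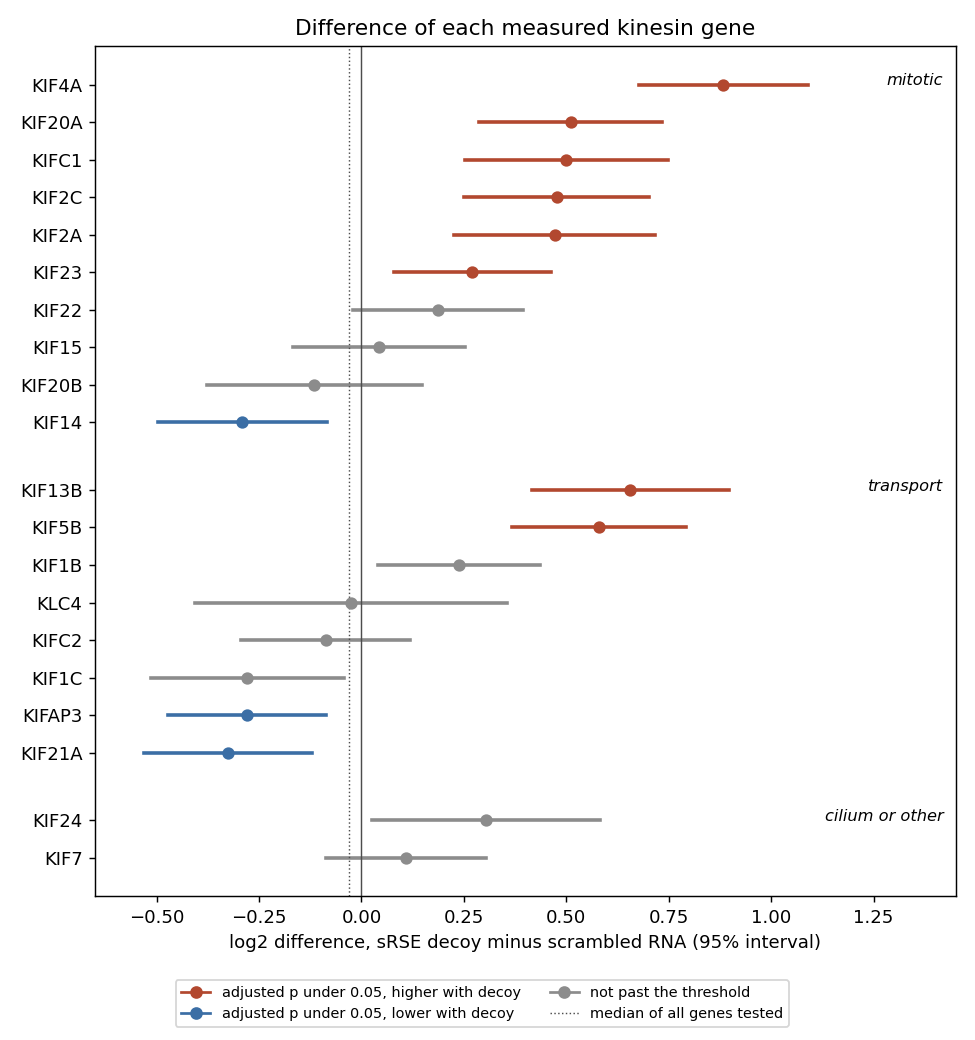
Log2 difference of each measured kinesin gene, sRSE decoy minus scrambled RNA, with its 95% interval (not adjusted for the number of genes), ordered within class. KIF4A stands highest at 0.88, 6 mitotic and 2 transport members passed as higher, and KIF14, KIFAP3 and KIF21A passed as lower.

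Over the 20 measured members, 8 rose and 3 fell, 40% and 15%, beside 21.3% called higher and 23.4% lower among all genes tested. Normalized groups did not overlap for 16 members, where 75.5% of all genes tested did not. Before normalization the decoy arrays lay above the scrambled arrays for 15 members and below them for 0, beside 57.9% and 10.9% of all genes, or 68.8% without overlap in either direction. The ratio of mean non-normalized signals ran from 0.982 for KIF21A to 2.10 for KIF4A, with a median of 1.33 against 1.16 for all genes tested. With median scaling 9 members were called higher and 0 lower, where the calls over all genes moved the same way, with 24.6% called higher and 15.5% lower. Among the 34 linked members tested when no detection filter was set, 8 were called higher and 0 lower, beside 7.09% and 6.51% of all 15323 genes then tested. These 8 include the transport member named above as not above background. The called count was 6 without sRSE decoy replicate 1 and 5 without sRSE decoy replicate 2, where the share of all genes called also dropped, to 23.5% and 22.5%.

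A further 14 members with a probe were not above background on any array. They are the copy KIF4B among mitotic genes, KIF1A, KIF3A, KIF3C, KIF5C, KIF13A, KIF17, KIF21B and KIFC3 among transport genes, and KIF6, KIF9, KIF12, KIF25 and KIF26A. Their non-normalized signals lay between 42.2 and 158.5, with a median of 67.5, and their probes give only a bound. KIF3C, a kinesin-2 heavy chain, was the nearest to the threshold on detection p of 0.01, with a lowest p of 0.0104. Its signal was 158.5 and 137 with the decoy and 92.0 and 90.4 with scrambled RNA. Next was the minus-end motor KIFC3, with a lowest p of 0.0130, and signals of 137 and 141 with the decoy and 112 and 80.6 with scrambled RNA.

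Another 12 members have an accession but no probe joined to it, so their values come from the authors' deposited table alone. That table gives 1 log10 ratio per accession, decoy over scrambled RNA, on a compressed scale, where the accession of KIF4A stands highest among kinesins at 0.0360. In the authors' deposited table KIF11, the motor that pushes spindle poles apart, was at 0.00555 (percentile 85.5 of all accessions). KIF18A, which damps chromosome movements at the metaphase plate, was at -0.0106 (percentile 5.98) in the authors' deposited table. The light chains KLC1, KLC2 and KLC3 stood at 0.0146, 0.00521 and 4.99e-04, and the kinesin-2 heavy chain KIF3B at 0.00752, in the authors' deposited table. The authors' deposited table holds 2 accessions of KIF1B that point opposite ways, 0.00828 for the one read by the probe above and -0.0103 for the other. These values carry no replicate error.

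Genes that work beside the kinesins were counted in the same fit. Of 17 measured spindle partners, 5 were called higher and 3 lower, 47.1% in all beside 44.7% of all genes tested, and their median difference was -0.01. AURKB, the kinase of the chromosomal passenger complex that KIF20A carries, rose by 0.60 ± 0.08, reading 11.21 and 11.21 with the decoy against 10.59 and 10.64 with scrambled RNA (log2, SE, n = 2 per group; limma adjusted p = 0.00167). TPX2, which brings the Aurora A kinase to the spindle, was higher by 0.82, and MKI67, which coats mitotic chromosomes, by 0.76. ECT2, the exchange factor that centralspindlin recruits through RACGAP1 for the cytokinetic furrow, read 10.87 and 10.73 with the decoy, against 11.82 and 11.64 with scrambled RNA, and is lower while the centralspindlin motor KIF23 is higher. The kinesin CENPE, whose symbol falls outside the rule, had no probe joined to it.

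Of 13 measured cargo adaptors and regulators of transport kinesins, 4 were called higher and 4 lower, 30.8% each way beside 21.3% and 23.4% of all genes tested, around a median of -0.07. Kinectin, KTN1, an anchor for kinesin-1 on the endoplasmic reticulum, rose by 0.51 ± 0.08 (log2, SE, n = 2 per group; limma adjusted p = 0.00300), as did the mitochondrial adaptor RHOT2 by 0.37 ± 0.08 (limma adjusted p = 0.00976). The RHOT2 call was lost when either decoy array was left out (0.38 without sRSE decoy replicate 1, 0.35 without replicate 2). RAB6A, a Golgi GTPase bound by KIF20A and KIF1C, rose by 0.51 on its brighter probe but did not pass as the mean of its probes (0.15), while a second probe read -0.22 and did not pass (limma adjusted p = 0.134 over all detected probes), and it is this second probe that was the brighter one, at -0.22 and -0.21, without sRSE decoy replicate 1 or 2.

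Of 18 measured subunits and partners of cytoplasmic dynein, a motor that moves inwards, 3 were called higher and 3 lower. That is 16.7% each way beside 21.3% and 23.4% of all genes tested, around a median difference of -0.04. The heavy chain DYNC1H1 read 11.79 and 11.88 with the decoy, against 11.08 and 11.04 with scrambled RNA, a difference of 0.78 ± 0.08 (log2, SE, n = 2 per group; limma adjusted p = 8.56e-04). DCTN1, the large subunit of dynactin, fell by 0.56 and the light intermediate chain DYNC1LI1 by 0.51, and DCTN5 rose by 0.45 but did not pass without sRSE decoy replicate 1 (0.35). The named subunits of dynein thus stood on both sides of 0 in these arrays, as did those of dynactin. They were named by smallest p, and 12 of the 18 measured genes were not called.

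**Figure D3:**
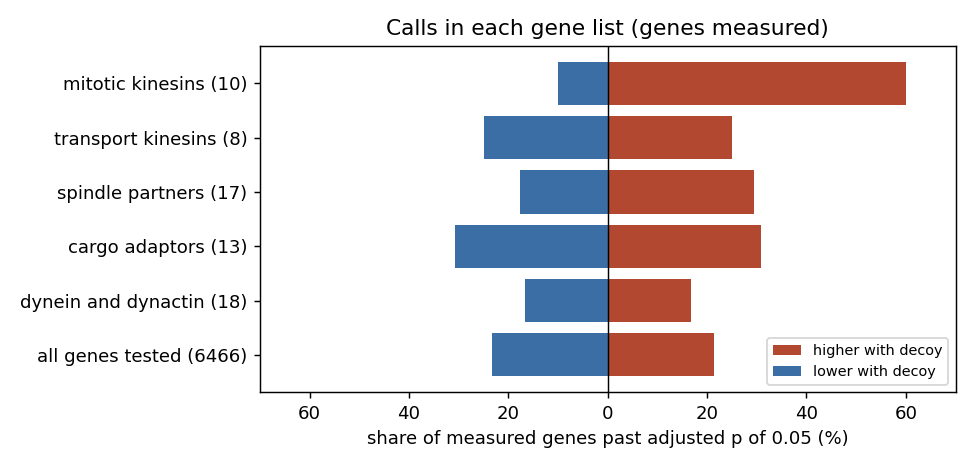
Share of measured genes past an adjusted p of 0.05 that were higher (right) or lower (left) with the sRSE decoy, for each list, with the number measured in brackets. For mitotic kinesins the shares are 60% higher and 10% lower, for transport kinesins 25% and 25%, and for all genes tested 21.3% and 23.4%.

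**Figure D4:**
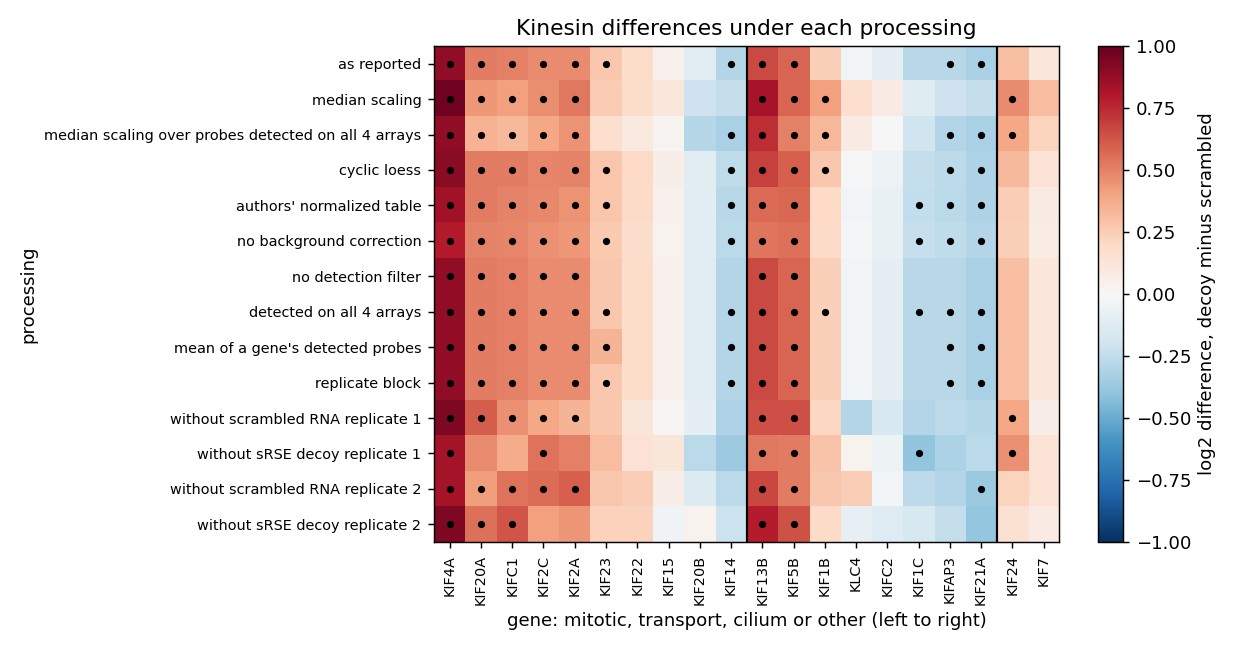
Log2 difference (colour) of each measured kinesin gene under each processing, with a dot where the adjusted p is under 0.05. KIF4A, KIF13B and KIF5B have a dot in every line, while the dots of KIF23, KIF14, KIFAP3 and KIF21A come and go.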

How the data were processed

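Intensities (mean bead signal per probe) and detection p-values were deposited by the authors, per the file headers, with no background subtraction or log transform. The authors' normalized intensities of the same arrays come from lumi according to the submitters' processing notes, which state no version. The authors' deposited table of 1 value per accession fits a log10 ratio between groups, taken after those normalized intensities were averaged on an inverse hyperbolic sine scale.

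No probe annotation was given. Each accession was joined to the only probe whose recomputed ratio agreed within 6e-10 (32393 of 39747 accessions), where tables shifted so that no true link remained gave 106 links on average. Names come from RefSeq (GRCh38.p14). In 1 detection column, 3 cells held a signal and were refilled from neighbours in signal. Signals were corrected by normexp (offset 16), then log2 transformed and quantile normalized (limma 3.58.1, R 4.3.3). A probe was kept with a detection p under 0.01 on 2 or more arrays. A gene was read by its brightest probe, and groups were compared with lmFit and eBayes over 6466 genes, without covariates. The fit and the join were tested on simulated data.

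The 4 arrays limit precision. All members may be named, with up to 4 partners per list by smallest p, of which 1 is not reported here. Members and lists were chosen with earlier results of these data known, and the promoter words and shown promoters after the values were seen. After normalization, same-numbered samples of the groups did not deviate together (correlation -0.011 across genes), and the numbers were not used to pair them. Before normalization replicate 1 was the brighter in both groups. Its 75th percentile was 208 against 193 for replicate 2 with the decoy, and 166 against 157 with scrambled RNA. A repeat with names from platform annotation was not run.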

Additional observations from a re-analysis of the deposited data

How the results depend on the processing

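Each result was recomputed under 13 alternatives, of which median scaling over the probes detected on all 4 arrays was chosen after seeing the data. KIF4A, KIF13B and KIF5B kept their calls under all 13. With 1 array left out, 1430 to 2463 genes were called among all genes, 5 to 8 kinesin genes, 2 to 5 mitotic and 2 to 3 transport kinesins, and 11 to 20 kinesin partners, and the medians ran from 0.31 to 0.34 for mitotic and from -0.21 to 0.11 for transport kinesins. Fewer arrays leave fewer residual degrees of freedom, and the lone array of a group is taken to vary like the other group. The split of all calls, 1378 higher and 1512 lower, became 1593 and 1004 with median scaling, where the median of all genes moved to 0.03. The mitotic median was 0.25 with median scaling over the detected probes, and the transport median was 0.13 with median scaling and 0.044 over the detected probes; the cause was not tested. Uncalled values that changed sign were KLC4 (0.17 with median scaling, 0.085 over the detected probes, 0.0038 with cyclic loess, and -0.30 to 0.24 with 1 array left out), KIFC2 (0.085 with median scaling and 0.0029 over the detected probes), KIF15 (-0.035 to 0.12 with 1 array left out) and KIF20B (-0.27 to 0.038). RAB6A read -0.22 to 0.54 with 1 array left out, since the brightest of its probes then changed. With the replicate number as a block, 2823 of 6466 genes were called, or 43.7%, and no call of a kinesin gene changed. Calls were then made for 11 of 20 kinesin genes, 7 of 10 mitotic and 4 of 8 transport kinesins. Of the 48 measured partners 23 were called. Names from platform annotation were not tried, since no annotation was given. Probes near background, KIF3C and KIFC3 among them, are limited by signal.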
